A study of Mus musculus with 6 samples.

Results

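Naive-state marker genes are transcripts that mouse embryonic stem (ES) cells carry at high level while they resemble the epiblast of the blastocyst, and that decline as the cells move towards differentiation. The 10 genes considered here, Zfp42, Dppa2, Dppa3, Dppa4, Dppa5a, Fbxo15, Tdh, Utf1, Gdf3 and Tcl1, are markers outside the core factors and the Klf family, and were matched by symbol. Of these, 9 are among the 10128 genes of the table analysed, and Dppa3 was not analysed here. RNA sequencing was done on Tex19.1-/- ES cells (3 libraries), which have no working copy of Tex19.1, and on Tex19.1+/- ES cells (3 libraries), which keep 1. Both derive from the E14Tg2a line of 129/Ola background, were grown on gelatin in serum with medium containing leukaemia inhibitory factor, and were used at passages 12 to 18. The control cells are heterozygous rather than wild type, so the comparison asks what losing the last copy changes. How many clones each genotype represents was not stated in the labels.

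Naive pluripotency is held by a network of transcription factors around OCT4, SOX2 and NANOG, and most of the genes described here are direct or indirect targets of that network. Their products are diverse: chromatin-associated proteins, an RNA-binding protein, a mitochondrial enzyme, an F-box protein and proteins of growth factor and kinase signalling. In ES cells grown in serum, several of them, Zfp42 above all, vary between cells of the same culture, and a bulk library averages over that variation. Tex19.1 is itself expressed in pluripotent cells, placenta and germ cells.

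The values are the authors' own comparison: for each gene a log2 fold change, a p-value, an adjusted p and a mean level as log2 CPM, where CPM scales a gene's reads by the size of its library. A positive log2 fold change is read as higher in Tex19.1-/- cells. That reading rests on Tex19.1 itself, which has the lowest value in the authors' deposited table, a log2 fold change of -6.92 that leaves 0.828% of the Tex19.1+/- level at a mean of 13.8 CPM, and it is therefore no independent check of the labels. With no values per library used here, depth and the spread between libraries are unknown. For orientation, levels in each genotype were estimated from the deposited mean and fold change, and a 95% interval was derived from the deposited fold change and p-value on a normal approximation. ES cell markers were abundant: all 7 of a short list were measured, with a summed estimated level of 4144 CPM in Tex19.1-/- cells and 4059 CPM in Tex19.1+/- cells.

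Most of the naive-state markers were higher in Tex19.1-/- cells, by modest amounts. An adjusted p of 0.05 was passed upward by 6 of the 9 measured genes in the authors' deposited table (Fbxo15, Tdh, Zfp42, Gdf3, Tcl1 and Dppa4), 2 passed downward (Dppa2 and Dppa5a), and Utf1 did not pass. Changes were widespread in these cells, and 51.7% of all genes passed that threshold (25.2% of all genes upward and 26.5% downward). A count of 8 of 9 therefore has to be read against a background of about 5 genes in 10. Among the 2083 genes at least as abundant as the least abundant of the 9 genes (93.1 CPM), 52.4% passed, 31.8% upward and 20.6% downward. The median log2 fold change of the 9 genes was 0.14, against 0.0031 for all genes and 0.033 for the 2083 abundant genes. Their median absolute log2 fold change was 0.18, against 0.11 for all genes and 0.091 for the 2083. At an adjusted p of 0.01 the same 8 genes passed, against 41.3% of all genes (19.5% upward, 21.8% downward), and after Bonferroni adjustment 5 passed, 4 upward and 1 downward, against 23.8% (9.58% upward, 14.2% downward). Called changes of at least 0.25 on the log2 scale (1.19-fold) were seen in 3 of the 9, all upward, against 21.7% of all genes (8.06% upward, 13.7% downward). None of the 9 changed 2-fold, which 1.46% of all genes did.

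**Figure D1:**
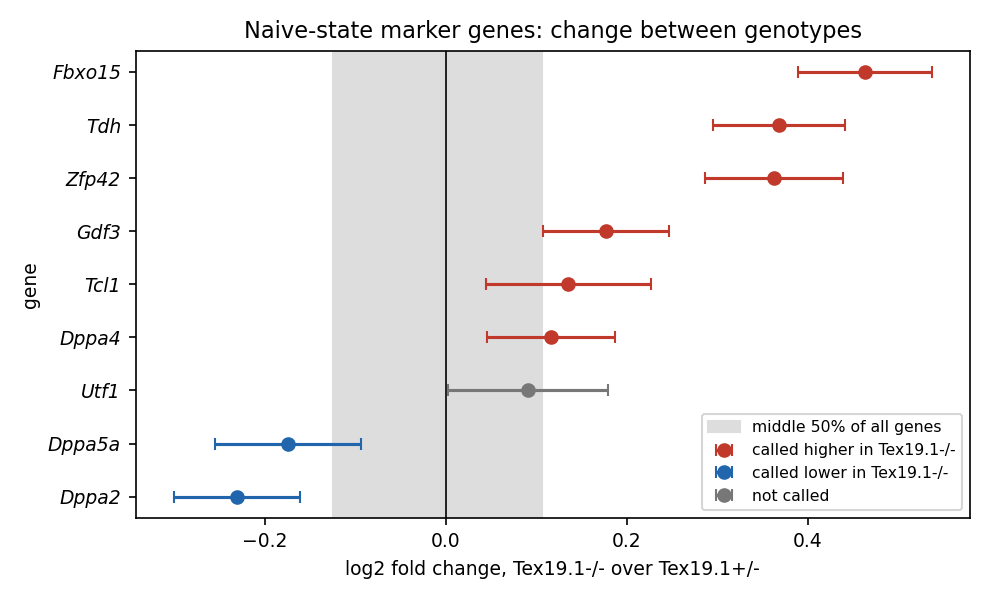
Log2 fold change (Tex19.1-/- over Tex19.1+/-) of the 9 measured naive-state marker genes, with the 95% interval derived from the deposited p-value; the grey band holds the middle 50% of all genes, from -0.12 to 0.11. Fbxo15, Tdh and Zfp42 lie to the right of every other gene of the set, while Dppa5a and Dppa2 lie on the other side of 0.

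The promoters of 3 of the 9 genes were matched in the RefSeq promoter table (GRCm38.p6) and are shown for the motifs in them of factors that act in ES cells. Zfp42 and Tcl1 rose and Utf1 did not pass. Each line gives the 250 bases before the RefSeq start of transcription, 5′ to 3′ on the gene's strand. By the GENCODE gene positions given below, the last bases of the Utf1 and Tcl1 lines lie inside the gene. Capitals mark matches on either strand to the octamer ATGCAAAT and to the GC box, whose letters are GGGCGG. They come from chr8:43307010-43307259 (minus strand) for Zfp42, chr7:139943606-139943855 (plus strand) for Utf1 and chr12:105222738-105222987 (minus strand) for Tcl1.

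Zfp42: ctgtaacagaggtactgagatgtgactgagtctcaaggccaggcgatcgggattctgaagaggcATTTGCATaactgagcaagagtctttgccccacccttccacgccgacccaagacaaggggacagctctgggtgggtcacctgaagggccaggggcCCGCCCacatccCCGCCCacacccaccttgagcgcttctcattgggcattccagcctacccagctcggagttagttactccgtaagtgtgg

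Utf1: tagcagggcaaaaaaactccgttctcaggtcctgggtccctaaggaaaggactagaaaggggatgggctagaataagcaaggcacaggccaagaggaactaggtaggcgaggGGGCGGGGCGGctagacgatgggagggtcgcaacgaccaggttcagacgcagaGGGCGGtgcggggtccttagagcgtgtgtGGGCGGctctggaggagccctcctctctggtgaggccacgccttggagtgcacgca

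Tcl1: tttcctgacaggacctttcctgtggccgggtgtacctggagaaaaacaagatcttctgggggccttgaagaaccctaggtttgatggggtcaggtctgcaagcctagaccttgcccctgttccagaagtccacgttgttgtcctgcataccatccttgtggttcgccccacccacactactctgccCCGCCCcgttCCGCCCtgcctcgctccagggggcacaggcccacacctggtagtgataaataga

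Of the 3 promoters, that of Zfp42 held the octamer, the DNA word bound by POU factors such as OCT4, on the strand opposite the gene from 186 to 179 bases before the start. Both strands of the 300-base windows were searched, which add 50 bases after the start, and the octamer occurred in 1.74% of the 32851 promoters in the table and in 1.25% of the 9802 promoters of genes measured here. All 3 windows held the GC box, bound by SP and KLF factors, as did 66.0% of promoters of measured genes. Utf1 had 4 copies, 2 of them overlapping by 1 base, and Zfp42 and Tcl1 had 2 each. The SOX core CATTGTT and the E-box CACGTG were found in none of the 3 windows, and in 1.78% and 10.6% of promoters of measured genes. A motif in a window is a description of its letters and not a bound site. The windows differed in base composition, with 17 CpG dinucleotides for Utf1 and 11 each for Zfp42 and Tcl1. The median was 7 over all 32851 promoters, most of them of genes not measured here. A median over promoters of measured genes was not computed.

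Among the genes for DNA- and chromatin-associated proteins, Zfp42 rose and its relative Yy1 did not pass. Zfp42 (ENSMUSG00000051176.6, chr8:43295063-43306980, GRCm38, minus strand, protein coding) encodes REX1, a zinc finger protein related to YY1 and the most widely used marker of the naive state. Its estimated level was 473 CPM in Tex19.1-/- cells and 368 CPM in Tex19.1+/- cells, a rise of 28.6%. The authors' deposited table gives a log2 fold change of 0.36 (95% interval 0.29 to 0.44) and an adjusted p of 1.58e-19 by the authors' edgeR comparison. Yy1, the parent gene of the family, stood at -0.02 (adjusted p = 0.605), and Rlim, which encodes a ubiquitin ligase that targets REX1 for degradation, at 0.07 (adjusted p = 0.142), per the authors' deposited table. Rybp, which encodes a Polycomb protein that binds YY1, fell, at -0.28 in the authors' deposited table. The nearest measured gene before Zfp42, Triml2, stood at 0.05 in the authors' deposited table and did not pass, so the rise of Zfp42 was not shared by its measured neighbours within 1 Mb (Triml1 at 0.04 and Triml2).

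Dppa2 and Dppa4, neighbours whose products work as a pair, moved in opposite directions. Both proteins carry a SAP domain, bind each other on CpG-rich promoters and are needed for genes of the 2-cell embryo to be switched on in ES cells. The genes lie 9.67 kb apart on the plus strand of chromosome 16, Dppa4 at chr16:48283733-48294237 (ENSMUSG00000058550.15) and Dppa2 at chr16:48303908-48319723 (ENSMUSG00000072419.5). Dppa2 had an estimated 151 CPM in Tex19.1-/- cells and 177 CPM in Tex19.1+/- cells. The authors' deposited table puts its log2 fold change at -0.23 (95% interval -0.30 to -0.16; adjusted p = 6.9e-10 by the authors' edgeR comparison). Dppa4 had an estimated 169 CPM in Tex19.1-/- cells and 156 CPM in Tex19.1+/- cells. For it the authors' deposited table gives 0.12 (95% interval 0.05 to 0.19; adjusted p = 0.00345). The intervals do not overlap: the 2 log2 fold changes differ by -0.35, and the estimated ratio of Dppa2 to Dppa4 reads was 0.892 in Tex19.1-/- cells and 1.13 in Tex19.1+/- cells. No test of that difference was possible without values per library, and with a trend on GC content and exon length removed Dppa4 (0.06) no longer passed while Dppa2 (-0.27) did. Morc1, the measured gene on the far side of Dppa2, rose with Dppa4, at 0.19 in the authors' deposited table, so the fall of Dppa2 lay between 2 rising neighbours. Dzip3, the only other measured gene within 1 Mb, fell about as much as Dppa2, at -0.22 in the authors' deposited table.

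Dppa2 and Dppa4 also have the closest copies of the set among annotated transcripts. Processed pseudogenes derived from their mRNAs carry stretches of nearly the same sequence, which matters for how short reads are assigned. Searched with BLAST at 90% identity over at least 200 bases, the longest Dppa2 transcript matched 6 other annotated genes, the closest being Gm9788 on chromosome 19 at 99.3% over 906 bases, and Dppa4 matched 2, the closest being Gm14058 on chromosome 2 at 99.4% over 532 bases. Of all 150-base windows, the length of a read, 20.1% of those in the Dppa2 transcript and 12.6% of those in the Dppa4 transcript occurred letter for letter in a pseudogene transcript. No such window was shared for the other 7 measured genes. For Dppa5a 10 other annotated genes matched, at 97.2% identity or less, and for Zfp42 and Tdh 1 each. The 90 bases below, chosen as the ungapped stretch with the most differences over 3 Dppa2 copies, show how alike they are. They are bases 411 to 500 of the Dppa2 coding sequence (GENCODE M21, GRCm38). Capitals mark, in Dppa2, bases at which any copy differs and, in a copy, its differences from Dppa2.

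Dppa2: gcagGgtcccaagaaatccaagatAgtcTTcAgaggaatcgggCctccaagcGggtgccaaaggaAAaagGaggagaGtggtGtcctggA

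Gm9788: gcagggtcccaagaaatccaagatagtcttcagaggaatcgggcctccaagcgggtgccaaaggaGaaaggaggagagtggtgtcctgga

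Gm8023: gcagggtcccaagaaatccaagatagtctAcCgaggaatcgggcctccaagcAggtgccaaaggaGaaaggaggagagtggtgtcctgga

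Gm9298: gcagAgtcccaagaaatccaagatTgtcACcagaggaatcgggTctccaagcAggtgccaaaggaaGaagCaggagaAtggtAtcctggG

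Over these bases Gm9788 differed from Dppa2 at 1 position, Gm8023 at 4 and Gm9298 at 11. These 3 pseudogenes were not analysed here, and how reads with several matches were counted was not stated. The part of this likeness in the opposite changes of Dppa2 and Dppa4 was not tested.

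Utf1, a small gene for a chromatin-associated protein of undifferentiated cells, did not pass. It lies at chr7:139943789-139945112 (ENSMUSG00000047751.9, plus strand), had an estimated 198 CPM in Tex19.1-/- cells and 186 CPM in Tex19.1+/- cells, and the authors' deposited table puts it at 0.09 on the log2 scale (95% interval 0.0023 to 0.18; adjusted p = 0.0795 by the authors' edgeR comparison). The interval reaches up to 1.13-fold, so Utf1 cannot be called equal in the 2 genotypes. Its transcript was the richest of the set in G and C, at 63.5%, where the others lay between 43.4% and 53.3%.

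Dppa5a, the most abundant gene of the set by far, fell. Its product, also called ESG1, is a KH-domain RNA-binding protein of pluripotent cells. The gene is short, at chr9:78367052-78368177 (ENSMUSG00000060461.5, minus strand), and its mean of 1566 CPM made up 47.1% of all reads assigned to the 9 genes. The estimated level was 1471 CPM in Tex19.1-/- cells and 1660 CPM in Tex19.1+/- cells. The authors' deposited table gives a log2 fold change of -0.17 (95% interval -0.25 to -0.09; adjusted p = 8.91e-05 by the authors' edgeR comparison), so the level fell by 11.4%. With the trend on GC content and exon length removed, the fall was larger, at -0.27. Ooep, the oocyte-expressed gene next to it that also encodes a KH-domain protein, did not pass (-0.09, adjusted p = 0.06, per the authors' deposited table).

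Tdh, the gene of threonine dehydrogenase, rose. The enzyme starts the breakdown of threonine in mitochondria to acetyl-CoA and glycine, and mouse ES cells are known to depend on it. Tdh (ENSMUSG00000021953.14, chr14:63492347-63509092, minus strand) had an estimated 520 CPM in Tex19.1-/- cells and 403 CPM in Tex19.1+/- cells. The authors' deposited table has it at a log2 fold change of 0.37 (95% interval 0.30 to 0.44; adjusted p = 6e-22 by the authors' edgeR comparison), or 29.1% higher. Of 20 measured genes of threonine, glycine and one-carbon metabolism 9 rose and 4 fell, where 25.2% of all genes rose and 26.5% fell. Their median log2 fold change was 0.08, against 0.0031 for all genes. Gcat, whose enzyme acts directly after threonine dehydrogenase and which was named after its value was seen, rose too (0.16, adjusted p = 0.015, per the authors' deposited table). Gldc, the decarboxylase of the glycine cleavage system, rose by 0.49, and Shmt1, the cytosolic serine hydroxymethyltransferase gene, by 0.27, whereas the mitochondrial genes Shmt2 and Mthfd2 fell, at -0.41 and -0.55, all in the authors' deposited table.

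The neighbours of Tdh moved both ways. Of 9 measured genes within 1 Mb 4 rose and 4 fell, where 25.2% of all genes rose and 26.5% fell. The median log2 fold change of the 9 was 0.04, against 0.0031 for all genes, and all 9 lay below Tdh. The nearest measured gene after it, the myotubularin-family gene Mtmr9, rose by 0.11 (adjusted p = 0.0137), and Pinx1, further on the same side, rose by 0.27 in the authors' deposited table. The nearest measured gene before it is Gata4, an endoderm factor gene at -2.08 in the authors' deposited table, and Sox7, another endoderm factor gene beyond Pinx1, was at -1.56, again in the authors' deposited table. Pinx1 and Sox7 were named after their values were seen. Further along the chromosome, 107 genes that start more than 4 Mb after Tdh had a median of -0.66 and 99 of them fell, while the 233 genes before Tdh had a median of 0.0034. Between them, the 19 genes that start 1 to 4 Mb after Tdh had a median of -0.12, and 2 rose and 11 fell. Tdh, which rose, lies before these genes, and where the long stretch of lower genes begins was not tested. An antisense transcript, Gm17232, overlaps Tdh on the opposite strand and was not analysed here. The library kit kept strand, but the strand setting used for counting was not stated.

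**Figure D2:**
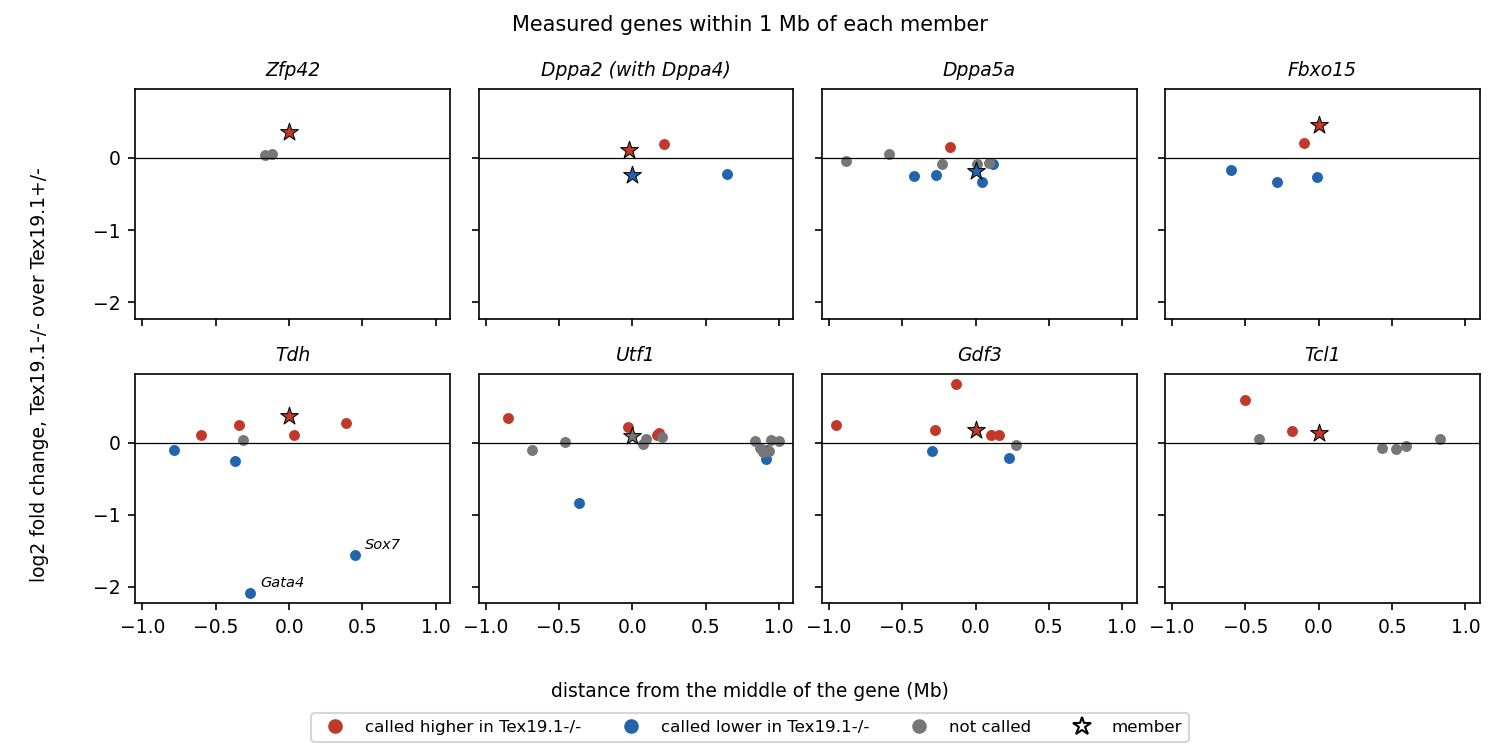
Log2 fold change (Tex19.1-/- over Tex19.1+/-) of measured genes within 1 Mb of each naive-state marker gene, against distance from the middle of that gene in Mb; stars are the naive-state markers and Dppa4 shares the panel of Dppa2. In the Tdh panel the star at 0.37 stands above Gata4 at -2.08 and Sox7 at -1.56, and in the Dppa2 panel the 2 stars lie on opposite sides of 0.

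Fbxo15 had the largest change of the set. It encodes an F-box protein, the substrate-binding part of an SCF ubiquitin ligase, is a known target of OCT4 and SOX2, and was used as a reporter of pluripotency in early reprogramming work. The gene (ENSMUSG00000034391.12) lies on chromosome 18 and had an estimated 171 CPM in Tex19.1-/- cells and 124 CPM in Tex19.1+/- cells. The authors' deposited table lists it with a log2 fold change of 0.46 (95% interval 0.39 to 0.54; adjusted p = 2.85e-33 by the authors' edgeR comparison), or 37.9% higher, and 8.41% of all genes had a larger absolute change. Timm21, a mitochondrial import gene on the opposite strand inside the bounds of Fbxo15, fell, at a log2 fold change of -0.26 and a mean of 13.3 CPM, in the authors' deposited table, so the 2 overlapping genes moved in opposite directions. Of 8 genes for the constant parts of SCF ligases 3 rose and 1 fell, a share near the 51.7% of all genes called, with a median log2 fold change of 0.03 against 0.0031 for all genes. Skp1a, which encodes the adaptor that holds F-box proteins, rose by 0.40, and Nedd8 and Cks1b rose by 0.20 and 0.14, whereas Ube2r2, a ubiquitin-conjugating enzyme gene, fell, at -0.11 (adjusted p = 0.0109), each per the authors' deposited table. Cul1, the cullin scaffold gene, was named after its value was seen and did not pass (-0.02, adjusted p = 0.713, per the authors' deposited table).

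The signalling genes Gdf3 and Tcl1 rose slightly. Gdf3 encodes a ligand of the TGF-beta superfamily that can act like Nodal and can hold back BMP signals. It lies at chr6:122605403-122610087 (ENSMUSG00000030117.5, minus strand), in a cluster of pluripotency genes that holds Dppa3 and Nanog. The estimated level was 124 CPM in Tex19.1-/- cells and 110.1 CPM in Tex19.1+/- cells. The authors' deposited table gives a log2 fold change of 0.18 (95% interval 0.11 to 0.25; adjusted p = 3.15e-06 by the authors' edgeR comparison). Its nearest measured neighbours rose as well, Nanog by 0.10 (adjusted p = 0.0359) and Rimklb by 0.81 in the authors' deposited table. Genes of Nodal, GDF and BMP signalling went mainly the other way, with 11 of 18 lower and 3 higher, where 26.5% of all genes fell and 25.2% rose. Their median was -0.19, against 0.0031 for all genes. Bmp4 was at -0.74, the proprotein convertase genes Pcsk6 and Furin at -0.69 and -0.49, and the Nodal antagonist gene Lefty1 at 0.58 in the authors' deposited table.

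Tcl1 encodes a small protein that binds AKT kinases and increases their activity. It lies at chr12:105216750-105222793 (ENSMUSG00000041359.14, minus strand) and was the least abundant of the set, with an estimated 97.5 CPM in Tex19.1-/- cells and 88.7 CPM in Tex19.1+/- cells. The authors' deposited table gives a log2 fold change of 0.14 (95% interval 0.04 to 0.23; adjusted p = 0.0089 by the authors' edgeR comparison), and it no longer passed, at 0.09, with the trend on GC content and exon length removed. Of 18 measured genes of the PI3K and AKT pathway 8 fell and 4 rose, where 26.5% of all genes fell and 25.2% rose. Their median was -0.09, against 0.0031 for all genes. Inpp5d, which encodes the lipid phosphatase SHIP1, had the smallest p-value, at -1.29, followed by Foxo3 at -0.37, Foxo1 at -0.28 and the kinase gene Pik3cb at 0.25 in the authors' deposited table.

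**Figure D3:**
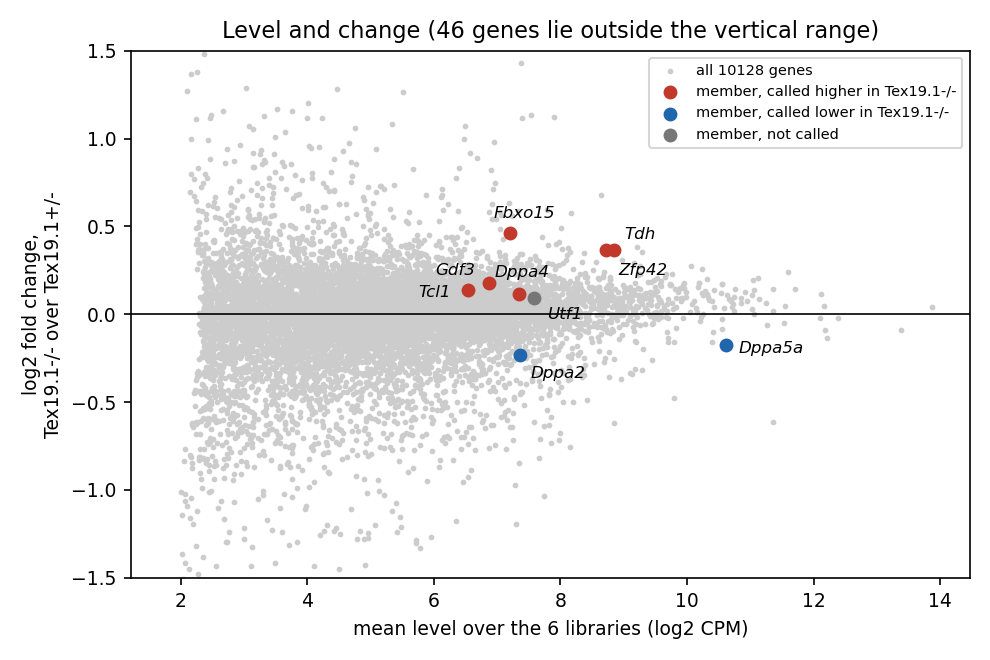
Log2 fold change (Tex19.1-/- over Tex19.1+/-) against mean level in log2 CPM for all 10128 genes (grey) and the 9 naive-state markers (coloured by call); 46 genes lie beyond 1.5 on the vertical axis and are not drawn. The markers are all abundant, from 93.1 CPM for Tcl1 to 1566 CPM for Dppa5a. The 2083 genes at least as abundant as Tcl1 had a median absolute log2 fold change of 0.091, against 0.11 for all genes.

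Divided by the length of the exons, levels over the 6 libraries were highest for Dppa5a, at 2529 CPM per kb. Of the measured genes with a known exon length, 0.0927% were higher. Zfp42 followed at 224, Tdh at 176, Utf1 at 157, Dppa4 at 98.0 and Dppa2 at 67.1 CPM per kb. The lowest were Tcl1 at 50.5, Gdf3 at 48.4 and Fbxo15 at 43.9 CPM per kb. These levels have no spread, so the order of close neighbours such as Tcl1 and Gdf3 is not established. In the order of fold changes, Fbxo15, Tdh and Zfp42 had overlapping intervals, as did Gdf3, Tcl1, Dppa4 and Utf1, and Dppa5a and Dppa2. The lowest bound of the first group, 0.29 for Zfp42, lay above the highest bound of the second, 0.25 for Gdf3. The 2 genes that fell were the most abundant of the set per kb (Dppa5a) and the sixth of 9 (Dppa2).

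Other pluripotency genes were split. For the counts that follow, 25.2% of all genes rose and 26.5% fell, with a median of 0.0031. Of 18 core and naive transcription factor genes 6 rose and 7 fell, with a median of 0.0040. The smallest p-values there belonged to Klf5 at -0.71, Tbx3 at -0.37, Gbx2 at -0.38 and Klf2 at 0.32 in the authors' deposited table. Klf5 lies on the lower stretch of chromosome 14, whose median is -0.66 and where 99 of 107 genes fell and 4 rose. Of 21 other ES cell markers 4 rose and 9 fell, with a median of -0.05, led by the muscle light chain gene Mylpf at -0.55, the adhesion gene Pecam1 at 0.73, the DNA demethylase gene Tet2 at -0.40 and the junction gene Jam2 at -0.44 in the authors' deposited table. The naive-state markers, with 6 of 9 higher, and the epiblast genes of the next stage, with 9 of 12 higher and none lower at a median of 0.52, both lay above these lists. In the epiblast list the authors' deposited table has Sox4 at 0.73, the homeobox gene Otx2 at 1.12, Zic2 at 0.58 and the cadherin gene Cdh2 at 1.04. Otx2 and Zic2 are also on chromosome 14. Whether the lists differ from each other was not tested.

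Most measured genes of the 2-cell-like state and of the germline were lower. The 2-cell-like state is the one that the DPPA2 and DPPA4 pair is known to enable. Of 19 genes listed for it only 5 were measured, of which 4 fell and 1 rose, where 26.5% of all genes fell and 25.2% rose. The summed estimated level of these 5 genes was not lower, at 94.1 CPM in Tex19.1-/- cells and 93.3 CPM in Tex19.1+/- cells. The authors' deposited table has Zscan4c at -0.41, the provirus repressor gene Zfp809 at -0.31, Ddit4l at -0.50 and Calcoco2 at 0.69. Zscan4c and Zscan4f, which also fell (-0.35 in the authors' deposited table), belong to a family of near-identical copies among which reads may be split. Of 20 listed germline genes kept silent by DNA methylation in somatic cells 10 were measured, of which 6 fell and 1 rose. Among them Piwil2 was at -1.23, Hormad1 at -1.20, Stag3 at -0.77 and Tdrd12 at 0.75 in the authors' deposited table. Piwil2 lies on the lower stretch of chromosome 14.

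**Figure D4:**
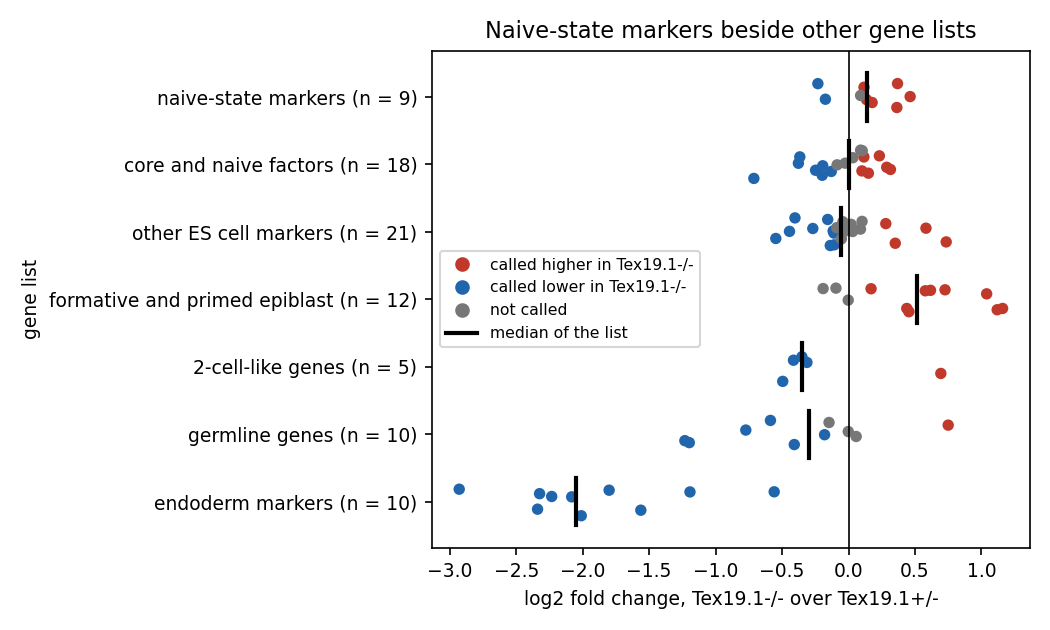
Log2 fold change (Tex19.1-/- over Tex19.1+/-) of every measured gene of 7 lists, coloured by call, with a black bar at the median of each list; vertical scatter within a list carries no meaning. The naive-state markers have a median of 0.14, between the formative and primed epiblast genes at 0.52 and the core and naive factors at 0.0040, and the endoderm markers have a median of -2.05.

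Markers of other cell types moved with genotype, in both directions. All 10 measured of 12 endoderm markers fell, with log2 fold changes between -0.56 for Lamb1 and -2.93 for Cubn in the authors' deposited table, and their summed estimated level was 314 CPM in Tex19.1-/- cells and 812 CPM in Tex19.1+/- cells. Of the ES cell markers 4 of 7 rose and none fell, where 25.2% of all genes rose and 26.5% fell. Lin28a was at 0.35, Sox2 at 0.23, Sall4 at 0.12 and Nanog at 0.10 in the authors' deposited table, whereas Pou5f1, the gene of OCT4, stood at -0.09 (adjusted p = 0.0534). All 7 also belong to the larger lists of core and naive factors (6 of 18 higher, 7 lower) or other ES cell markers (4 of 21 higher, 9 lower). Of 8 fibroblast and feeder markers 2 were measured and both fell, Vim at -0.33 and Fbn1 at -0.76 in the authors' deposited table. All 4 neuroectoderm markers were measured, and 3 rose and 1 fell: Pax6 at 0.87, Tubb3 at 0.42, Nes at 0.31 and Sox1 at -0.47 in the authors' deposited table, with a summed estimated level of 116 CPM in Tex19.1-/- cells and 87.2 CPM in Tex19.1+/- cells. Of 6 trophoblast markers 2 were measured: the authors' deposited table has Tfap2c higher by 0.86 and Eomes, which did not pass, at -0.09, and their summed estimated level was 40.3 CPM in Tex19.1-/- cells and 24.8 CPM in Tex19.1+/- cells. Of 4 mesoderm markers 0 were measured. Fewer cells of a type and less RNA per cell cannot be told apart in bulk libraries, and the part of these other cell types in the rise of Fbxo15, Tdh and Zfp42 was not tested.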

How the data were processed

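Per the labels' protocols, TRIzol-extracted RNA went into stranded TruSeq mRNA libraries for paired-end HiSeq sequencing. Build mm10 and the tools HTSeq 0.11.2, TopHat2 2.1.0, edgeR and Trim Galore 0.4.1 are named by the submitters' processing notes, which state no annotation, strand setting, low-count filter or form of test. The authors deposited 4 values for each of 10128 genes, per the file headers: log2 fold change, mean log2 CPM, p-value and adjusted p-value. Benjamini-Hochberg adjustment of the deposited p-values gave the deposited adjusted values to within 6.7e-05. No deposited mean lies under 1.82 on the log2 CPM scale, and all 9 genes found lie far above that. The count model planned for values per library was not run. Nothing in the labels says that the libraries of a genotype came from separate cultures, so the p-values may measure technical spread only.

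Computed here with Python 3.11.15, pandas 2.3.3, scipy 1.17.1 and statsmodels 0.14.6 were the standard error implied by each deposited p-value (absolute log2 fold change over the two-sided normal quantile), 95% intervals, and estimated CPM per genotype, taking the deposited mean as that of 2 equal groups. These intervals inherit the authors' test and add no information. Positions, exon lengths and transcript sequences come from GENCODE M21 on GRCm38, which mm10 names: 9573 symbols matched directly, 135 through older symbols and 420 not at all. Near copies were searched with BLAST 2.17.0. The code for the implied errors and the trend removal was tested on simulated data. The simulated p-values followed the same normal formula, so that test cannot show how well the approximation fits the authors' p-values. The genes and lists were chosen with earlier results of these data known. Genes named are the 9 found, Tex19.1, up to 4 genes with the smallest p-value per list and the nearest measured gene on either side of each marker, and others are named as chosen after their values were seen: in the gene lists, marker lists and neighbourhoods these are Triml1, Dzip3, Gcat, Pinx1, Sox7, Cul1, Zscan4f, Pou5f1 and Lamb1. Alternatives tried were Bonferroni adjustment, a threshold of 0.01 on the adjusted p, only genes of 16 CPM or more, a lowess trend (span 0.3) on GC content and exon length removed, centring on the median gene, and a least absolute log2 change of 0.25.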

Additional observations from a re-analysis of the deposited data

How the results depend on the processing

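Trend removal and centring are the alternatives that alter the fold changes, and the direction of all 9 genes held under both. An adjusted p under 0.01, centring on the median gene and the 7401 genes of at least 16 CPM left 8 called, 6 higher and 2 lower. Of all genes tested at these settings, 41.3%, 51.5% and 51.7% were called. With Bonferroni adjustment 5 were called, 4 higher and 1 lower: Dppa4, Tcl1 and Dppa5a no longer passed, and 23.8% of all genes did. With a least absolute log2 change of 0.25, 3 were called, 3 higher and 0 lower, against 21.7% of all genes. With the trend on GC content and exon length removed, 6 were called, 4 higher and 2 lower, Dppa4 at 0.06 and Tcl1 at 0.09 no longer passed, 50.4% of all genes were called, and the median of the 9 moved to 0.092, against 0.14 as deposited. Dppa5a then stood at -0.27, against -0.17 as deposited; the cause was not tested. Without values per library, no library could be left out. No paired analysis was possible because the deposited columns hold 1 comparison over all libraries and carry no replicate numbers. The depth of the libraries is unknown, and the smallest changes, those of Utf1, Dppa4 and Tcl1, rest on the authors' p-values alone.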
